A study of Mus musculus with 12 samples.

Results

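Clock output genes carry the timing of the circadian oscillator into liver metabolism. The set described here holds the PAR bZIP activators Dbp, Tef and Hlf, their repressor Nfil3, the repressors Bhlhe40 and Bhlhe41, the deubiquitinase gene Usp2, the nuclear receptor gene Rora and the cytochrome P450 reductase gene Por. The members were all probe sets whose symbol in the platform annotation is one of these 9 genes. That rule gave 15 of 22626 tested probe sets, for 8 of the 9 genes. Por had no probe set under its symbol and was not analysed here. The 9 genes were chosen from earlier results on these arrays, in which log2 signals of clock genes differed between Z on and Z off livers. Values of that contrast and of Z off minus M off are therefore given as a description, with no test. The same holds for the difference between the on minus off changes of the 2 lines. The exception is Cry2, a gene outside the set, for which a test of that difference is given.

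In the liver clock, the activator pair CLOCK and BMAL1 binds E-box elements and drives its own repressors together with output genes such as Dbp. DBP, TEF and HLF bind D-box elements as activators, and NFIL3 (also called E4BP4) binds the same elements as a repressor, typically in the opposite phase. Nfil3 in turn is driven through RORE elements, which ROR-alpha activates and REV-ERB proteins repress. Known PAR bZIP targets in liver include genes of drug, heme and bile acid metabolism. These transcripts cycle over the day, and no source used here gives the time of day at which the livers were taken. Its part in the values was not tested.

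Liver RNA came from 12 male mice of 6 weeks with hepatocyte-specific, inducible human alpha1-antitrypsin, measured on 12 one-colour Affymetrix arrays. The transgene was the wild-type M form in M mice and the mutant Z form in Z mice, a protein that folds poorly and stays in the endoplasmic reticulum. M off and Z off mice (titles M1 and Z1) drank doxycycline at 40 µg/mL from conception until they were killed, which kept the transgene silent. M on and Z on mice (titles M4 and Z4) received none and expressed it, and each group held 3 arrays that the titles call biological replicates. Expression and the absence of doxycycline cannot be told apart in this design, and neither can the Z form and its mouse line.

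Regulatory sequence could be matched for 8 of the 9 genes in RefSeq (GRCm38.p6), where a window of 300 bases runs from 250 before to 50 after each annotated start. Each window was searched on both strands for the E-box CACGTG, the variant CACGTT, the D-box letters TTATGTAA and TTACGTAA, and the RORE consensus. The windows of Tef, whose signal followed that of Dbp over the arrays, of Dbp itself and of the repressor Nfil3 are printed with matches in capitals. The Tef start sites lie at chr15:81802423-81802722 and chr15:81811164-81811463 (plus strand), Dbp at chr7:45704997-45705296 (plus strand) and Nfil3 at chr13:52980990-52981289 (minus strand).
Tef start site 1: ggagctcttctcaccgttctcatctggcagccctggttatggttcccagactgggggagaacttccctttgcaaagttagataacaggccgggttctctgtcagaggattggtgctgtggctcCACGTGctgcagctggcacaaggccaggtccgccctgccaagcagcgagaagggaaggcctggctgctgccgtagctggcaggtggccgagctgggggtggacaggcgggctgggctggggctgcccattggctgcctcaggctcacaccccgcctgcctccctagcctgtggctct
Tef start site 2: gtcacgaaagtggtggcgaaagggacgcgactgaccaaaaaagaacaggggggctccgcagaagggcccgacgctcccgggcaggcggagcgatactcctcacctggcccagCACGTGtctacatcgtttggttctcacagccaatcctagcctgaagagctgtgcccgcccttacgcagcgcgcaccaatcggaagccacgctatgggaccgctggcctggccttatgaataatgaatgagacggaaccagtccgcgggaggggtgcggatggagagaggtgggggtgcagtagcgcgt
Dbp: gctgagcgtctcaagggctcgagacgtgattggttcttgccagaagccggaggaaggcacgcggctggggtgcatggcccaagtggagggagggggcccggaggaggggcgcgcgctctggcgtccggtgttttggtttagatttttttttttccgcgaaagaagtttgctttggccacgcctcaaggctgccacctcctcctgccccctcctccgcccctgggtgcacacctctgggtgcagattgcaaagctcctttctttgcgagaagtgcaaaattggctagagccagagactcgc
Nfil3: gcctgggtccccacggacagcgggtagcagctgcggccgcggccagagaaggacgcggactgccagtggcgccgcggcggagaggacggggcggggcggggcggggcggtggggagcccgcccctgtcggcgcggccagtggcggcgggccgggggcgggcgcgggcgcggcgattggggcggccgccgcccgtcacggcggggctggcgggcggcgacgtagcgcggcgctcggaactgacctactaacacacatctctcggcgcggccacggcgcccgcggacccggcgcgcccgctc
Each Tef window held 1 CACGTG, whose first base lay at -127 and at -138 relative to the start. Bhlhe41 also held 1 such match, at -153 in its window at chr6:145865371-145865670 (minus strand). Over all 32851 promoters of this length, 7.15% held a CACGTG, 4.68% a CACGTT, 0.938% a TTATGTAA, 0.119% a TTACGTAA and 0.384% a RORE. The windows of Dbp, Hlf, Nfil3, Usp2, Rora and Por held none of these letters.

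The median signal of an array was 38.7 to 47 units, and precision is limited by the number of arrays. RNA quality controls moved with the groups only in part. The 18S control signal was 93.9 to 373.0 in Z off, 914.2 to 1491.7 in Z on, 568.2 to 709.8 in M off and 226.6 to 767.5 in M on. For beta-actin, signal at the 3′ end over that at the 5′ end was 2.18 to 2.53 in Z off, 2.44 to 5.16 in Z on, 2.72 to 3.89 in M off and 3.09 to 4.38 in M on. Z off lay below M off on both controls. On and off groups overlapped for beta-actin in both lines and for 18S in the M line. For GAPDH the same ratio was 1.09 to 1.49 in Z off and 1.23 to 1.92 in Z on. It was 1.48 to 1.54 in M off and 1.46 to 1.6 in M on, so on and off overlapped there too. The part of these controls in the members' values was not tested. No probe set is named for the human transgene, so the labels could not be checked through it. Hepatocyte markers were bright on all arrays, with summed signals from 93569 to 140523 over 8 of 8 markers (albumin, transthyretin and others). Among markers of other cell types, only the stellate and erythroid sums were apart between Z on and Z off. Sums for Kupffer, sinusoidal endothelial, cholangiocyte, lymphocyte, neutrophil, skeletal muscle and exocrine pancreas markers overlapped between these groups. The summed signal of the 8 stellate cell markers was 1121 to 1435 in Z on and 1783 to 2090 in Z off, and that of 4 of 6 erythroid markers 168 to 292 in Z on and 1159 to 1514 in Z off. Taken singly, 1 of the 8 stellate markers and 2 of the 4 erythroid markers had a higher mean log2 signal in Z on. The erythroid sum thus does not speak for each of its markers. Stellate markers read 1180 to 1751 in M on and 1916 to 2127 in M off. Also apart in the M line were the sinusoidal endothelial sum (588 to 651 in M on, 689 to 741 in M off) and the skeletal muscle sum (71.1 to 85.9 and 87.2 to 480). The erythroid sum was 255 to 309 in M on and 285 to 343 in M off, so Z off was the group that stood apart on this sum. The part of these cell types in the members' values was not tested. In such bulk tissue, fewer cells of a type and less RNA per cell cannot be told apart.

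Z on replicate 3 stood apart from the other Z on arrays for several members. Its signal lay inside the range of the 3 Z off arrays on 9 of the 15 member probe sets, against 4 for Z on replicate 1 and 2 for Z on replicate 2. Over all probe sets the corresponding shares were 51.4%, 47.2% and 48.2%. The member share of replicate 3 was thus only a little above its share over all probe sets. Those of replicates 1 and 2 lay well below theirs, so this count does not by itself mark replicate 3 as unusual. Over the 11313 brighter probe sets the mean correlation of replicate 3 was 0.955 with the other Z on arrays and 0.955 with the Z off arrays. For replicate 1 these values were 0.958 and 0.945, and for replicate 2 they were 0.954 and 0.947. Its beta-actin 3′ to 5′ ratio (3.9) lay between those of the other Z on arrays (5.16 and 2.44). Its 18S control signal of 1483.6 was close to the 1491.7 of replicate 2. Log2 differences that rest on this array are given with and without it.

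Dbp, the founding PAR bZIP activator, had the widest range of the 8 leading probe sets, the one of highest mean for each gene. This probe set read 107.1, 51.1 and 23.8 in Z off livers, and it read 1365, 1385.3 and 80.1 in Z on livers. The M off arrays read 838.7, 1103.5 and 905.4, and the M on arrays 1555.9, 1297.4 and 1094. Every Z off array and Z on replicate 3 thus lay far below the other 8 arrays, and the highest signal was 65.4 times the lowest. The M groups overlapped each other, and the Z on group spanned the range from Z off to M on. The log2 difference of Z on minus Z off was 3.39 (SE 0.98, n = 3 each), and 4.76 (SE 0.52) without Z on replicate 3. Z off minus M off was -4.22 (SE 0.98).

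The other Dbp probe set had the same 4 low arrays at a lower level, with a correlation of 0.99 to the first over the 12 arrays. Z off arrays read 50, 45.4 and 21.8 and Z on arrays 686.3, 842.3 and 60.4. M off arrays read 479.8, 665.3 and 437 and M on arrays 981.4, 1063.2 and 621.2. On this probe set Z on replicate 3 read just above the highest Z off array, so that the Z groups did not overlap. Z on minus Z off was 3.15 (SE 0.85), and 4.37 without Z on replicate 3.

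Tef, a PAR bZIP activator of broad expression, had the same low arrays over a narrower range. Its brightest probe set read 284.4, 295.7 and 179.2 in Z off and 895, 716.2 and 291.7 in Z on. It read 709.7, 692.4 and 574.5 in M off and 741.6, 808.7 and 684.5 in M on. Z on replicate 3 lay inside the Z off range, and the other Z on arrays lay above every M off array. Z on minus Z off was 1.21 on the log2 scale (SE 0.38), and 1.70 (SE 0.26) without Z on replicate 3. The other Tef probe sets were dim, one of them below 16 signal units on 11 of 12 arrays, and they correlated with the brightest at 0.27 and 0.34. They add little on Tef at this signal.

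Hlf, the remaining PAR bZIP activator, varied least within this family. Its brighter probe set read 152.4, 146.6 and 133.9 for Z off and 202.9, 203 and 156.2 for Z on. It read 169.8, 165.7 and 145.7 for M off and 170.1, 156 and 163.9 for M on. All Z on arrays lay above all Z off arrays, but only replicates 1 and 2 lay above every other array. The log2 difference of Z on minus Z off was 0.37 (SE 0.17), and 0.49 (SE 0.17) without Z on replicate 3. The highest Hlf signal was 1.52 times the lowest, against 4.99 times for Tef. The other Hlf probe set read 56.4 to 155.4 and its 4 groups overlapped.

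**Figure D1:**
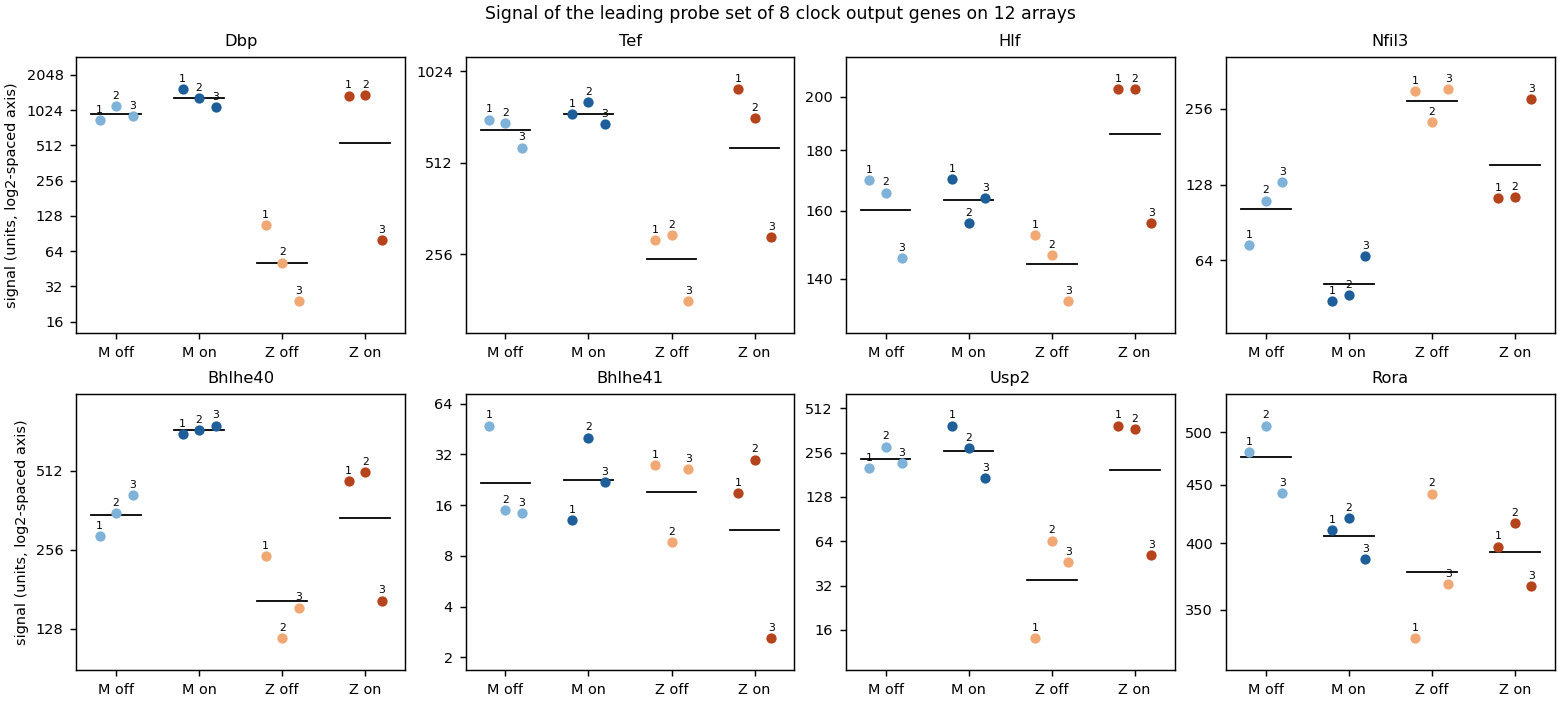
Signal of the leading probe set (highest mean) of each gene, in signal units on a log2-spaced axis, by group; points are arrays labelled by replicate number and bars are geometric means. For Dbp, Tef, Bhlhe40 and Usp2, the Z off arrays and Z on replicate 3 are the lowest 4 of the 12, while for Nfil3 they are the highest 4.

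Nfil3, the repressor that competes with the PAR bZIP activators for D-boxes, ran the other way. It read 300.7, 226.3 and 306.2 in Z off and 113.1, 114.1 and 278.7 in Z on. It read 73.6, 110.6 and 130.6 in M off and 44, 46.6 and 66.6 in M on. The arrays lowest for Dbp were the highest for Nfil3, again with Z on replicate 3 inside the Z off range, and the M on arrays lay below all others. On the log2 scale Z on minus Z off was -0.84 (SE 0.38), and -1.28 (SE 0.30) without Z on replicate 3. Z off minus M off was 1.43 (SE 0.38).

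Bhlhe40 encodes DEC1, a repressor that binds E-boxes. It read 241.8, 117.7 and 153.7 in Z off and 466.8, 503.6 and 163.4 in Z on. The M off arrays read 287, 351.4 and 413.8, and the M on arrays 704.2, 727.9 and 759.9. Both lines had higher means in the on group, and M on was the one group that lay wholly above the other 9 arrays. The log2 difference was 1.04 (SE 0.42) for Z on minus Z off and 1.07 (SE 0.42) for M on minus M off. The Z value without Z on replicate 3 was 1.57 (SE 0.30).

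Bhlhe41, which encodes the related repressor DEC2, was dim. It read 27.5, 9.6 and 26.1 for Z off and 18.9, 29.8 and 2.6 for Z on. It read 47.4, 14.9 and 14.4 for M off and 13, 40.2 and 21.8 for M on. All 4 groups overlapped, and 5 of 12 arrays read below 16 signal units. The log2 difference of Z on minus Z off was -0.74 (SE 0.91), and 0.32 (SE 0.70) without Z on replicate 3, whose signal of 2.6 sets the sign.

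Usp2, a deubiquitinase gene with rhythmic expression in many tissues, read low on the same arrays as Dbp. Its brighter probe set read 14.1, 64.6 and 46.2 in Z off and 390.2, 367.2 and 51.5 in Z on. It read 200.7, 280.7 and 216.8 in M off and 389.3, 275.4 and 171.2 in M on. Z on replicate 3 lay inside the Z off range and below every M array. Z on differed from Z off by 2.48 on the log2 scale (SE 0.80), and 3.44 (SE 0.60) without Z on replicate 3. The other Usp2 probe set read 15.2, 14.7 and 1.8 in Z off and 230.8, 300.7 and 13.6 in Z on, a log2 difference of 3.73 (SE 1.16), and 5.16 (SE 0.84) without Z on replicate 3. Its size is uncertain because the Z off signals are dim.

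Rora, the nuclear receptor gene that acts on RORE elements, had small differences. Its brightest probe set read 330.5, 442 and 368.7 for Z off and 397.3, 416.9 and 366.9 for Z on. It read 480.6, 507 and 442.4 for M off and 410.5, 421.1 and 387.2 for M on. All M off arrays lay above all arrays of the other groups, the closest being Z off replicate 2. Z on minus Z off was 0.06 on the log2 scale (SE 0.16), and 0.11 (SE 0.19) without Z on replicate 3. Another Rora probe set read 99.5 to 167.7 and the dimmest 11.9 to 36.1. Correlations of these with the brightest were -0.02 and 0.28, so the Rora probe sets disagreed on the order of the arrays.

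**Figure D2:**
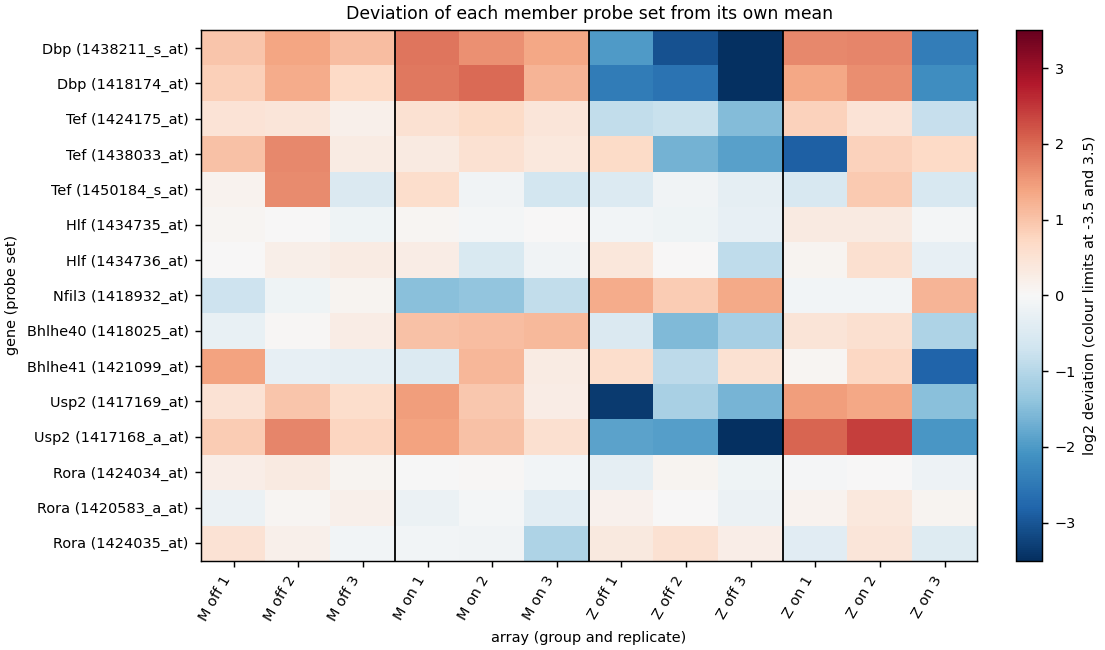
Log2 deviation of each of the 15 member probe sets (rows) from its own mean over the 12 arrays (columns, by group and replicate); red is above and blue below the mean. Both Dbp and both Usp2 probe sets, the brightest Tef and Bhlhe40 are blue in Z off and in Z on replicate 3, where Nfil3 is red.

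Over the 8 leading probe sets, Z on minus Z off had 6 positive and 2 negative log2 differences with a median of 0.71, against -0.03 over all 12393 genes. Without Z on replicate 3 the median was 1.03. Only 2 of the 15 member probe sets had Z on and Z off groups that did not overlap, a Dbp and an Hlf probe set, both higher, while 11.8% of all probe sets were apart in this way (5.22% higher and 6.61% lower). Without Z on replicate 3 it was 8 of 15 (7 higher, 1 lower), against 23.4% of all probe sets with the smaller group (11.0% higher and 12.4% lower). In Z off against M off, 8 of 15 were apart (7 lower, Nfil3 higher), against 15.1% of all (6.76% lower and 8.36% higher). These contrasts share the Z off arrays and were in view when the genes were chosen, so nothing is read from their counts.

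In M on against M off, where the wild-type protein and the absence of doxycycline go together, Bhlhe40 read higher and Nfil3 lower. Neither passed the test. Bhlhe40 had a log2 difference of 1.07 (SE 0.42; limma unadjusted p = 0.0299, adjusted p = 0.909) and was higher in 3 of 3 arrays. Nfil3 had -0.99 (SE 0.38; limma unadjusted p = 0.0262, adjusted p = 0.894) and was lower in 3 of 3 arrays. Over the alternative settings the adjusted p ranged from 0.529 to 1.0 for Bhlhe40 and from 0.595 to 1.0 for Nfil3. Dbp differed by 0.47, with a 95% interval from -1.73 to 2.66, Tef by 0.18 (-0.68 to 1.04) and Usp2 by 0.20 (-1.59 to 1.98). The fit shares 1 spread over all 4 groups. Fitted on the 6 M arrays alone, the SE was 0.23 in place of 0.98 for Dbp, 0.35 in place of 0.80 for Usp2 and 0.19 in place of 0.38 for Tef, and limma's adjusted p was 0.991, 0.997 and 0.993. For Rora the difference was -0.23 (-0.60 to 0.14) and for Hlf 0.03 (-0.35 to 0.40).

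None of the 15 member probe sets passed the test of M on and M off (limma, adjusted p under 0.05), and 0.0% of all probe sets did. At an unadjusted p under 0.05 there were 2 of 15 members, against 5.18% of all probe sets. Groups were apart for 3 of 15 (Bhlhe40 higher, Nfil3 and a Rora probe set lower), against 10.5% of all probe sets (5.23% higher and 5.32% lower).

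Z on against M on asks how livers making the mutant protein differ from those making the wild-type one, across 2 lines. Nfil3 had the smallest p of the members and did not pass, with a log2 difference of 1.57 (SE 0.38; limma unadjusted p = 0.00202, adjusted p = 0.427). All Z on arrays lay above all M on arrays. Without Z on replicate 3 the difference was 1.14 (SE 0.30, adjusted p = 0.496), and over all alternatives the adjusted p ranged from 0.0929 to 0.649. Bhlhe40 read lower in all Z on than in all M on arrays (-1.11, SE 0.42; limma adjusted p = 0.654), and without Z on replicate 3 the value was -0.59 (SE 0.30). Dbp differed by -1.29 (95% interval -3.48 to 0.91), a value that was 0.08 without Z on replicate 3. Tef moved likewise from -0.38 to 0.11 and Usp2 from -0.44 to 0.52.

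No member passed here either (limma, adjusted p under 0.05), where 0.00884% of all probe sets passed. At an unadjusted p under 0.05 there were 3 of 15 members, against 6.85% of all probe sets. Groups were apart for 3 of 15 (Nfil3 and a Rora probe set higher, Bhlhe40 lower), against 12.1% of all (6.07% higher and 6.02% lower). Without Z on replicate 3 it was 5 of 15, against 21.8% of all (11.4% higher and 10.4% lower).

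**Figure D3:**
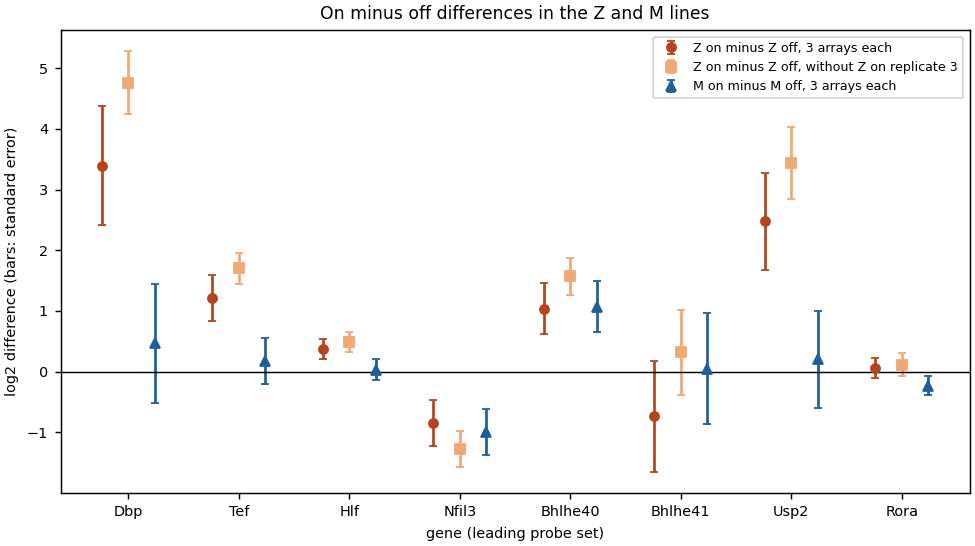
Log2 difference of the leading probe set of each gene with its standard error, for Z on minus Z off with all arrays (circles), without Z on replicate 3 (squares), and for M on minus M off (triangles). Dbp lies at 3.39 and 4.76 in the Z line and at 0.47 in the M line, while Bhlhe40 lies near 1 in both lines.

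The on minus off difference of the Z line, less that of the M line, was 2.93 (SE 1.39) for Dbp, 2.29 (SE 1.13) for Usp2 and 1.03 (SE 0.54) for Tef. Without Z on replicate 3 these were 4.30, 3.25 and 1.52. With all arrays it was 0.14 (SE 0.53) for Nfil3 and -0.03 (SE 0.60) for Bhlhe40, and the sign of both turned without Z on replicate 3, to -0.29 (SE 0.40) and 0.49 (SE 0.41). For the leading probe sets of Dbp, Usp2 and Tef, M on minus M off was 0.47, 0.20 and 0.18. It was 0.74 (SE 0.85) for the other Dbp probe set. On each of these probe sets the mean of Z off was the lowest of the 4 groups.

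Across the 12 arrays, Dbp correlated with Tef at 0.98, Bhlhe40 at 0.90, Usp2 at 0.86, Hlf at 0.68, Rora at 0.47 and Bhlhe41 at 0.35, and with Nfil3 at -0.86 (Pearson r of log2 signals). These values are descriptive, since the arrays share 4 groups and 4 low arrays carry most of the range. Over the 6 M arrays alone, r with Dbp was 0.61 for Tef, 0.75 for Bhlhe40, 0.78 for Usp2, 0.27 for Hlf, -0.48 for Rora and -0.72 for Nfil3. After group means were removed, r was 0.93 for Tef and -0.73 for Nfil3, and without Z on replicate 3 these became 0.70 and -0.07. For Bhlhe40 the value within groups went from 0.88 to 0.53 and for Usp2 from 0.58 to -0.48. The other probe sets gave different values. The dimmer Usp2 probe set went from 0.95 to 0.88 with the leading Dbp probe set, and the other Dbp probe set from -0.82 to -0.40 with Nfil3.

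**Figure D4:**
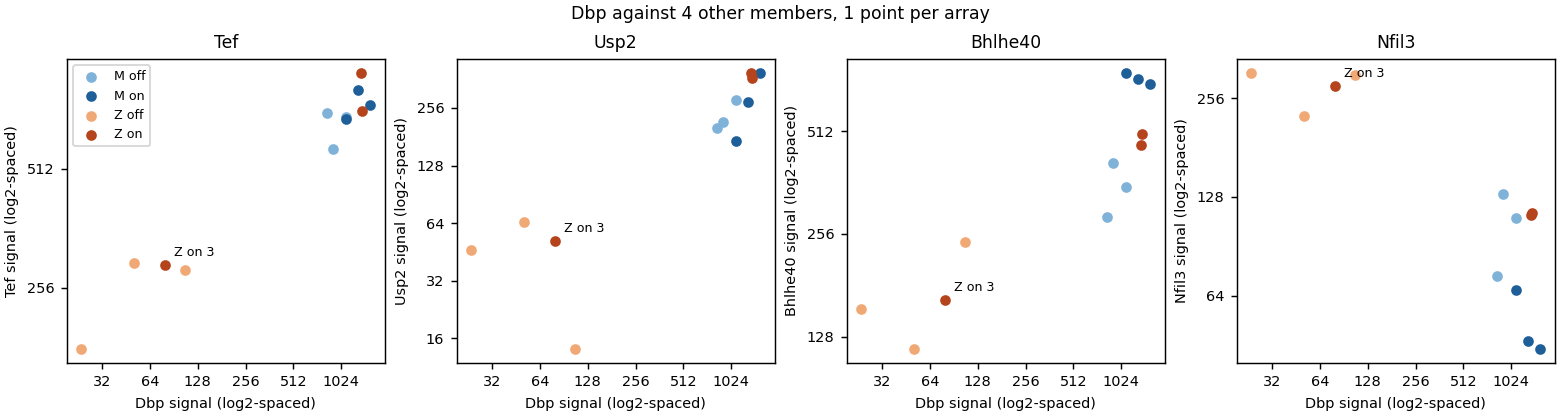
Signal of Tef, Usp2, Bhlhe40 and Nfil3 against that of Dbp, 1 point per array, both axes log2-spaced and colours marking the 4 groups. The Z off arrays and Z on replicate 3 form a low-Dbp set apart from the other 8 arrays in each panel.

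Of 7033 brighter genes set against the leading Dbp probe set, Tef had the highest correlation over the 12 arrays. Per3 and Nr1d2, a period gene and the gene of REV-ERB beta, followed at 0.97 and 0.95. Next came 1810055G02Rik and Atp6v1e1, a proton pump subunit (0.93 each). Zfp281, Bach1, a heme-binding repressor, and Nsmce4a had 0.91 each, and Slc8b1, a mitochondrial exchanger, and Bhlhe40 had 0.90 each. Over the 6 M arrays r was 0.85 for Per3, 0.56 for Slc8b1, 0.50 for Nr1d2 and 0.39 for Nsmce4a, but -0.43 for 1810055G02Rik, -0.14 for Atp6v1e1, -0.42 for Zfp281 and -0.23 for Bach1. Usp2 ranked 32 from the top, Hlf 257 and Rora 870, and Nfil3 ranked 21 from the bottom.

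The genes most opposed to Dbp were Lgalsl and Chka (-0.97 each), Pnp and Ddc (-0.95 each) and Clpx (-0.94). Chka encodes a choline kinase, Pnp a purine nucleoside phosphorylase, Ddc aromatic amino acid decarboxylase and Clpx a mitochondrial unfoldase. Lgalsl read 295.9, 394.8 and 424.2 in Z off and 121, 97.7 and 428.2 in Z on, where replicate 3 was the highest of all 12 arrays. Clpx read 601.4, 680.1 and 887.1 in Z off and 236.5, 235.4 and 770.3 in Z on. Over the M arrays r was -0.75 for Lgalsl, -0.86 for Clpx, -0.84 for Pnp, -0.53 for Chka and -0.15 for Ddc.

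Of the core clock loop, 13 of 17 listed genes had a probe set, 8 higher and 5 lower in Z on than in Z off (median log2 difference 0.12, against -0.03 over all genes). Leaving out Z on replicate 3 gave 7 higher and 6 lower (median 0.09, against -0.01 over all genes). Arntl, which encodes BMAL1, read 115.5, 96.2 and 178.7 in Z off and 4, 22.5 and 80.8 in Z on, a difference of -2.70 (SE 0.93), and -3.73 without Z on replicate 3. Npas2, its CLOCK-like partner, differed by -1.95 (SE 1.10), and by -2.66 without that array, at signals between 1.1 and 38.8. Per3 read 45.9, 40.9 and 12.5 in Z off and 143.9, 172.7 and 38.5 in Z on, with replicate 3 again inside the Z off range. Nr1d2 read 300.4, 269.6 and 148.9 in Z off and 918.7, 767.7 and 464.1 in Z on, so there replicate 3 lay above Z off. In the M line, M on minus M off was -1.74 (SE 0.93) for Arntl, whose M on arrays all lay below the M off arrays. For Npas2 (-0.42), Per3 (0.32) and Nr1d2 (0.08) the M groups overlapped. No gene of this list passed in M on against M off or in Z on against M on (limma). At an unadjusted p under 0.05 there were 2 of 13 in each, against 589 and 799 of 12393 genes.

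Of known or likely PAR bZIP targets, 20 of 23 were measured, and 11 read higher and 9 lower in Z on than in Z off (median 0.20), and 12 and 8 in M on against M off (median 0.18, against -0.00 over all genes). Leaving out Z on replicate 3 gave the Z line 14 higher and 6 lower (median 0.09). Groups were apart for 5 of the 20 in Z on against Z off and for 6 in M on against M off, all of them higher in the on group. Over all probe sets, 11.8% were apart in the Z line (5.22% higher and 6.61% lower) and 10.5% in the M line (5.23% higher and 5.32% lower). Alas1, the rate-limiting enzyme of heme synthesis, read 908.8, 455 and 592.3 in Z off and 3449.1, 1546.2 and 1275.1 in Z on. It read 928.1, 603.9 and 778.3 in M off and 3469, 2304.5 and 2727.5 in M on. The on groups lay above the off groups in both lines, with log2 differences of 1.60 (SE 0.40) in Z (1.88 without Z on replicate 3) and 1.88 in M (limma adjusted p = 0.439). Its correlation with Dbp was 0.63, and Z on replicate 3 lay above every Z off array.

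Cyp7a1, which catalyses the first step from cholesterol to bile acids, likewise read higher in both on groups, with log2 differences of 0.89 (SE 0.37) in Z (1.11 without Z on replicate 3) and 1.83 in M (limma adjusted p = 0.4). Cyp4a14, a fatty acid hydroxylase, read 2.3, 2.1 and 1.3 in Z off and 6.5, 33.8 and 28.2 in Z on, a difference whose size is uncertain at such signals. Cyp2c37 read 772.3 on Z off replicate 2 and 10.7 to 13 on the other Z off arrays, so its Z off mean rests on 1 array. In M on it read 829.4, 39.6 and 868.7. None of the 20 passed in either tested contrast (limma). At an unadjusted p under 0.05 there were 4 of 20 in M on against M off and 1 of 20 in Z on against M on, against 589 and 799 of 12393 genes.

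Of other rhythmic liver genes, 16 of 18 were measured, 9 higher and 7 lower in Z on than in Z off (median 0.35, and 0.43 with the same counts without Z on replicate 3). Upp2, a uridine phosphorylase gene, read 270.8, 577.9 and 429.4 in Z off and 2876.1, 2150.2 and 439.7 in Z on. Elovl3, a fatty acid elongase gene, read 2698.6, 3953 and 3518.7 in Z off and 643.4, 1141.6 and 2241.5 in Z on. Noct, the deadenylase-like gene nocturnin, read 85.5, 56.1 and 45.5 in Z off and 654.6, 268 and 97.6 in Z on. On all 3 genes Z on replicate 3 was the Z on array closest to Z off, and on Upp2 it lay inside the Z off range. Cdkn1a, a cell cycle inhibitor, read 104.7, 66.2 and 96.8 in Z off and 17.3, 49.7 and 46.4 in Z on. In the M line, M on minus M off was 1.47 (SE 0.56) for Noct and -0.72 (SE 0.43) for Elovl3, with groups apart. For Upp2 (-0.37, SE 0.66) and Cdkn1a (-0.40, SE 0.51) the M groups overlapped. No gene of this list passed in either tested contrast (limma). At an unadjusted p under 0.05 there were 4 and 2 of 16, against 589 and 799 of 12393 genes.

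**Figure D5:**
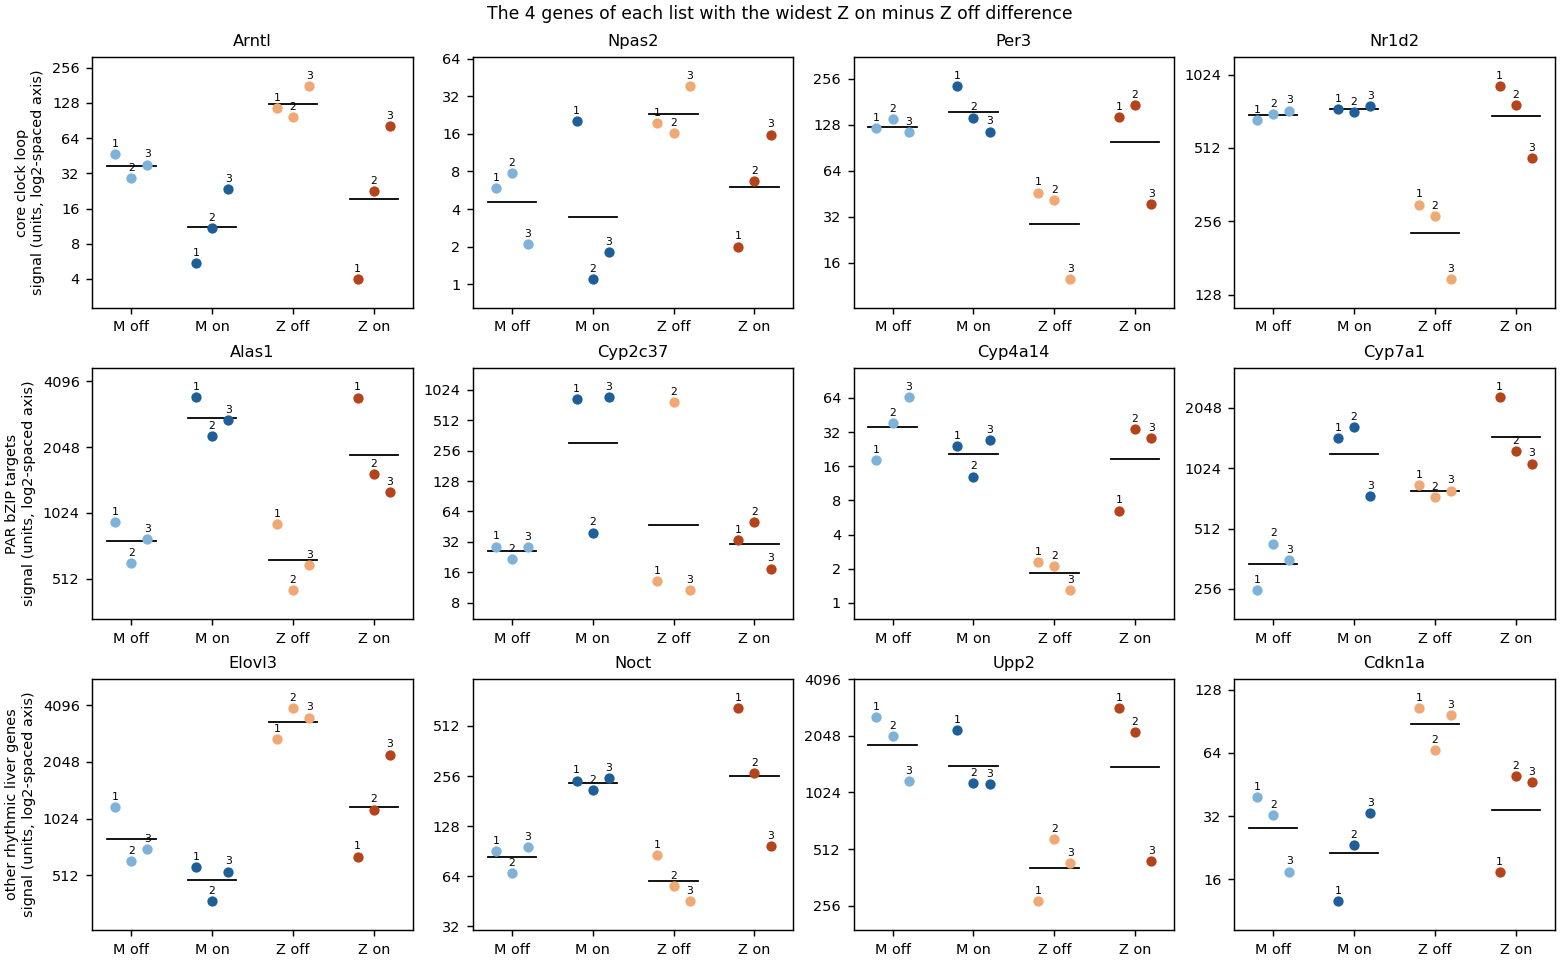
Signal (log2-spaced axis) by group for the 4 genes of each list with the widest Z on minus Z off difference; points are arrays labelled by replicate and bars geometric means. Z on replicate 3 lies with Z off for Per3 and Upp2, and above the Z off arrays for Nr1d2 and Alas1.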

How the data were processed

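Liver RNA of 12 mice was hybridised to 12 arrays. The authors deposited an intensity for each probe set and array on a linear scale from 0 to 37251.7. RMA is named in the submitters' processing notes, but it yields log2 values of equal distribution, whereas here each array's mean without the top and bottom 2% of values was 149.98; no source used here names another scaling step. Of 22690 probe sets, 64 controls were left out and 22626 tested; 20380 had 1 symbol, 691 several and 1555 none in the platform annotation. Signals were taken to log2 (1 value of 0 set to 0.1), with no further normalization. limma 3.58.1 (R 4.3.3) fitted 1 mean per group over 12 arrays, two-sided, with Benjamini-Hochberg adjustment over all probe sets; a call is an adjusted p under 0.05. The fit was tested on simulated data. The probe set with the highest mean leads for a gene. Members and lists were chosen with earlier results of these data known; named were all members, the 10 genes most and 5 least correlated with Dbp, and 4 genes per list. Arrays were treated as unpaired. Deviations from group means correlated from -0.083 to 0.161 over 18 same-numbered pairs (median 0.017), 3 of them above 0.1. Over 36 other pairs they correlated from -0.183 to 0.157 (median -0.011), 3 of them above 0.1. With a replicate block, the SE of Z on minus Z off for the leading Dbp probe set was 0.81 in place of 0.98. Alternatives were normalization, an offset of 16 or 50, variance model, a filter, fewer groups, a replicate block, array weights, averaged probe sets and leaving out each array; the values without Z on replicate 3 for lists and group overlaps, and correlations within groups, were chosen after seeing the data.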

Additional observations from a re-analysis of the deposited data

Results flagged for a closer look

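Cry2, a core clock repressor outside the member genes, had every Z on array above every Z off array and every M on array below every M off array. It read 21, 54 and 63.7 for Z off and 96.4, 125.2 and 89 for Z on. It read 90.8, 106.2 and 101.2 for M off and 41.8, 21.9 and 58 for M on. The difference between the on minus off changes of the lines was 2.7 on the log2 scale (SE 0.63). It did not pass in limma (unadjusted p = 0.00179, adjusted p = 0.598). The difference is given as a description, since Cry2 was picked for these opposed groups. The Z values also bear on how the clock genes were chosen, so the unadjusted p cannot be taken at face value. Cry2 correlated with Dbp at only 0.18 over the 12 arrays, and Z on replicate 3 lay with the other Z on arrays. None of the 15 member probe sets had such opposed groups. The share over all probe sets was not counted, so nothing is read from that number.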

How the results depend on the processing

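No member was called in M on against M off or in Z on against M on under any of 21 alternatives for each, the replicate block included (0 of 15 in both). The smallest member adjusted p in limma was between 0.529 and 1.0 and between 0.0929 and 0.649. The median of the member genes in Z on minus Z off was 0.71 with the replicate block and from 0.49 to 1.04 over 14 alternatives, 0.53 to 1.03 with 1 array left out. Single differences changed sign in 14 of 30 tested results. Adding 16 or 50 gave 0.01 and 0.01 for the dimmest Tef probe set and 0.04 and 0.18 for the dimmer Usp2 probe set in Z on minus M on, and array weights gave 0.05 for that Tef probe set. With 1 array left out, Z on minus M on ranged from -1.98 to 0.08 for Dbp, -0.70 to 0.11 for the brightest Tef, -1.50 to 0.34 and -0.51 to 0.32 for the other Tef probe sets, -1.68 to 0.08 for Bhlhe41, -0.94 to 0.52 and -1.0 to 1.23 for Usp2, -0.09 to 0.00 for the brightest and -0.03 to 0.45 for the dimmest Rora. M on minus M off ranged from -0.95 to 0.12 for the dimmest Tef, -0.04 to 0.07 for Hlf, -0.36 to 0.62 for Bhlhe41, and -0.08 to 0.51 and -0.32 to 0.18 for Usp2. The Dbp value turned only without Z on replicate 3. The cause was not tested. Of all values, 28.4% lay below 16, where the order of arrays is uncertain. Adding 50 lowered the Z on minus Z off value of the dimmer Usp2 probe set to 1.61.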
